A study of Mus musculus with 4 samples.

Results

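Messenger RNA of 9 genes that make, bind and break down retinoic acid was followed, and the genes were chosen by name for their place in the pathway: Cyp26a1, Cyp26b1, Cyp26c1, Dhrs3, Rdh10, Aldh1a2, Aldh1a3, Crabp1 and Crabp2. All 9 were found among the 23235 gene symbols of the deposited table. RNA was sequenced after rRNA depletion from 4 mouse cell cultures of strain 129S4/SvJae, with 1 library per group. WT_ES was wild-type embryonic stem (ES) cells of the J1 background at day 0, and DKO_ES was ES cells with a double knockout of Dnmt3a and Dnmt3b, which encode the enzymes that set new DNA methylation. Both lines were grown in serum with leukemia inhibitory factor, and their earlier passages had been kept on irradiated feeder cells. WT_NP and DKO_NP were neural progenitor cells made from these lines and taken at day 6, after 4 days as embryoid bodies, which are floating aggregates of differentiating cells, and 2 further days with added retinoic acid. The day 0 cells received no retinoic acid in this protocol, so embryoid body culture, time and retinoic acid cannot be told apart in a comparison of day 6 with day 0. Whether the knockout line is 1 clone is not given in the sources used here.

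Retinoic acid is made from retinol in a pair of oxidation steps. Retinol dehydrogenases such as Rdh10 make retinaldehyde, which Dhrs3 can reduce back to retinol, and the retinaldehyde dehydrogenases Aldh1a2 and Aldh1a3 oxidise it to retinoic acid. The Crabp proteins carry retinoic acid in the cytoplasm, and the Cyp26 enzymes, which are cytochrome P450 hydroxylases, break it down. In the nucleus retinoic acid binds receptors of the Rar family, which sit with Rxr partners on repeated DNA hexamers. Cyp26a1, Dhrs3, Rarb and several Hox genes are textbook targets of these receptors, and in the embryo the balance of synthesis and breakdown sets retinoic acid levels along the hindbrain and trunk.

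The start-site sequence of Cyp26a1 is shown because it is the gene of the 9 with the greatest difference between day 0 and day 6 in the knockout cells and is the only one whose window held a DR5, a direct repeat of hexamers spaced by 5 bases. RefSeq windows on GRCm38.p6, running from 250 bases before to 50 bases after a start, were held in the table used here for 6 of the 9 genes, with 8 windows in all; Rdh10, Aldh1a3 and Crabp2 are named only. The search used the hexamer AGGTCA, its variant AGTTCA, and the variants with a leading G, written GGGTCA for the one and GGTTCA for the other, on both strands, as direct repeats spaced by 1, 2 or 5 bases (DR1, DR2 and DR5). In Cyp26a1 the DR5 read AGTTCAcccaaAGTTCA on the strand opposite to the gene, 32 to 16 bases before the start. Its hexamers are in capitals below, in reverse complement, with the gene's strand shown 5′ to 3′.
Cyp26a1, chr19:37697558-37697857, plus strand: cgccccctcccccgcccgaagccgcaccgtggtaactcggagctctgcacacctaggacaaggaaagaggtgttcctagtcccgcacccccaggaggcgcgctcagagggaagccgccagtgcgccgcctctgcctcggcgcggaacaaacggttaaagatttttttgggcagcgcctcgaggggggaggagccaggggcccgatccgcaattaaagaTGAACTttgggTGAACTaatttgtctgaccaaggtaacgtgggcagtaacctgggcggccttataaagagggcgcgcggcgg
The start window of Rarb, the receptor gene in which the DR5 is best known, at chr14:16575427-16575726 on the minus strand, held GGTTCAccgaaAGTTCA on the gene's own strand, 53 to 37 bases before the start. A DR5 was present in 32 of 32851 windows in the table (0.0974%) and in 5 of 12871 windows of genes that reached 1 FPKM somewhere (0.0388%). A DR1 was present in 0.222% and a DR2 in 0.268% of all windows, and neither was found in a window of the 9 genes. A match of letters is a description and not a site of binding, and its absence says nothing of the receptors.

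The 2 windows below are shown because the knockout removed DNA methyltransferases, which act on CpG, and these genes lie at opposite ends of the range of CpG content among the 6 with a window. CpG dinucleotides are in capitals.
Aldh1a2, chr9:71215539-71215838, plus strand: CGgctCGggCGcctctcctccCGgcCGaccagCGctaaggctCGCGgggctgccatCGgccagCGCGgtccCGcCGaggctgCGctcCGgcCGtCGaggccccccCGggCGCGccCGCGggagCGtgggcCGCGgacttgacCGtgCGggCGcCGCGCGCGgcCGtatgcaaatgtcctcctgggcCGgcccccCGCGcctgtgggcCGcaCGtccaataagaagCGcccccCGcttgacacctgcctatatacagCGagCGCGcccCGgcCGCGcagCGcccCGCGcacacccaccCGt
Cyp26c1, chr19:37685430-37685729, plus strand: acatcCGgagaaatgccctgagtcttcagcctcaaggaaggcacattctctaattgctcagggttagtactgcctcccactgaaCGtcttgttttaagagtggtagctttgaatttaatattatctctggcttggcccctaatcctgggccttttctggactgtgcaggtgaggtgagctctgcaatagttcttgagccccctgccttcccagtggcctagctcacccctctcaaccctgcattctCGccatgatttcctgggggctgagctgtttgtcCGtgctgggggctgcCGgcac
The Aldh1a2 window held 50 CpG, an observed to expected ratio of 1.11, and the Cyp26c1 window held 5, a ratio of 0.235. The ratio was 0.894 for Cyp26a1, 0.314 for Cyp26b1, 0.543 for Crabp1 and between 0.594 and 0.824 for the 3 windows of Dhrs3. Alone among the 8 windows, that of Cyp26b1 did not match the beginning of a GENCODE transcript of its gene, so its place is less sure. Across all windows the median was 0.384, and 35.8% of windows reached 0.6; among genes that reached 1 FPKM these were 0.732 and 65.6%. DNA methylation was not measured in these libraries.

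Levels are given as deposited in FPKM, reads per gene scaled to transcript length and library depth. Folds are ratios after median scaling, which sets the typical gene to equal levels in every library. Each interval is a 95% exact one (Clopper-Pearson) on the reads behind a value, with reads inferred from the steps of the FPKM scale. They cover counting error only. With 1 library per group, neither the spread between cultures nor a test could be had, and no p-value is given. Median scaling mattered: as deposited, the median log2 ratio over all compared genes was -0.82 for WT_NP against WT_ES, -0.43 for DKO_NP against DKO_ES and 0.39 for DKO_NP against WT_NP. Differences of the 9 genes between genotypes at day 6 are therefore given on both scales where they differ in call. In bulk RNA, fewer cells of a type and less RNA per cell cannot be told apart.

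The targeted genes were partly retained as RNA in the libraries labelled DKO. Dnmt3a was at 35.3 FPKM in WT_ES and 12.3 FPKM in DKO_ES, and at 17.2 FPKM in WT_NP and 4.14 FPKM in DKO_NP. Dnmt3b was at 140.3 FPKM in WT_ES and 13.9 FPKM in DKO_ES, and at 9.98 FPKM in WT_NP and 5.22 FPKM in DKO_NP. Both genes were lower in the knockout library at each day; FPKM of a whole gene does not check the deleted exons. The estimated depth was 13.2 M reads for WT_ES, 34.8 M for WT_NP, 14.4 M for DKO_ES and 24.1 M for DKO_NP. These depths are rough, since reads summed over genes of at least 1 kb came to 19.1 M in WT_ES and 20.6 M in DKO_ES, more than the estimates.

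Of the 9 genes, 8 could be compared between WT_NP and WT_ES, at 1 FPKM or more in at least 1 library, and 8 of these were at least 2-fold higher in WT_NP. Over all 14086 compared genes 16.2% were at least 2-fold higher. In the knockout cells 7 of the 8 compared genes were at least 2-fold higher in DKO_NP than in DKO_ES, against 11.8% of 14050 genes. None was 2-fold lower in either comparison, where 11.3% and 11.2% of all genes were. The median log2 ratio of the compared genes was 3.88 in wild-type and 3.41 in knockout cells, against 0.01 and -0.03 over all genes. Cyp26a1, Cyp26b1 and Cyp26c1 entered both comparisons only through their day 6 level, so they could only be higher, and the counts are a description. As deposited, 7 of 8 genes were at least 2-fold higher in each genotype, with backgrounds of 6.4% and 7.84%, and none was lower, with backgrounds of 41.7% and 21.8%.

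**Figure D1:**
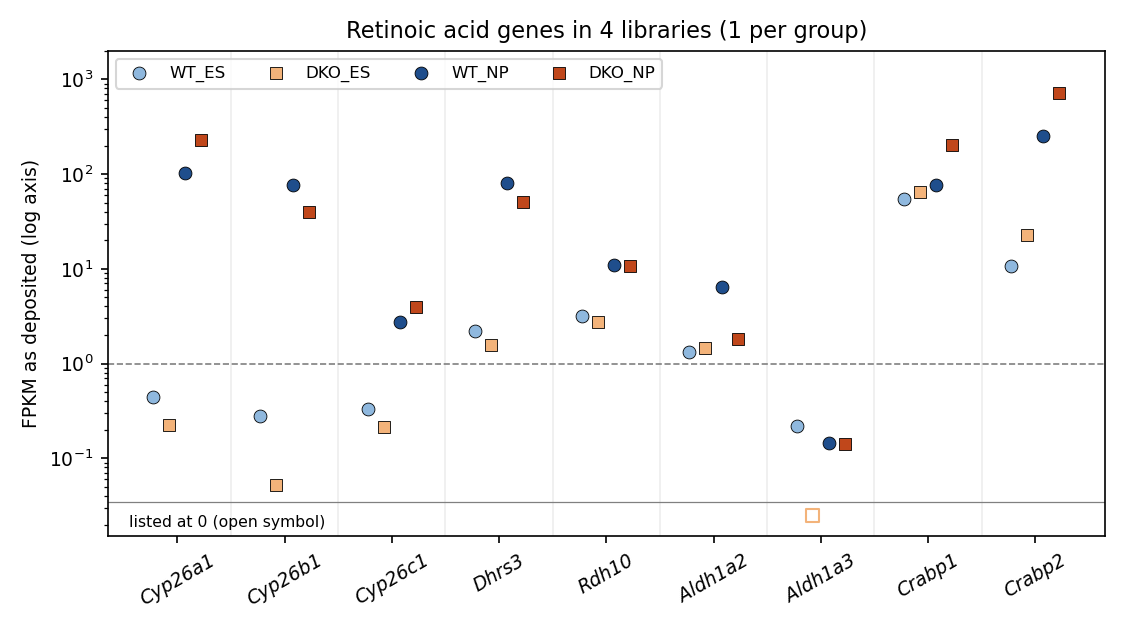
Level of each of the 9 genes in FPKM as deposited (log axis) in WT_ES, DKO_ES, WT_NP and DKO_NP, 1 point per library with no error bar; the dashed line marks 1 FPKM and the open square a value listed at 0. The 3 Cyp26 genes lie under 1 FPKM in both ES libraries and above it in both day 6 libraries, and Aldh1a3 lies under 1 FPKM in every library.

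Cyp26a1 and Cyp26b1 had the widest range of the group. Cyp26a1, on chromosome 19, was at 0.443 FPKM in WT_ES, 101.6 FPKM in WT_NP, 0.222 FPKM in DKO_ES and 226 FPKM in DKO_NP, from 11, 6630, 6 and 10183 reads. It was near the detection limit in both ES libraries and stood above 95.8% of expressed genes in WT_NP and 97.1% in DKO_NP. The fold from day 0 to day 6 was 451 (252 to 903) in wild-type and 1401 (643 to 3818) in knockout cells; these intervals overlap, and their width comes from the few reads at day 0. On the log2 scale with a pseudocount of 1 FPKM the DKO ratio of 7.73 was the 6th highest of all compared genes. At day 6 Cyp26a1 was 1.64-fold higher in DKO_NP than in WT_NP (1.59 to 1.69), which is under 2-fold; as deposited it was 2.22-fold higher.

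Cyp26b1, on chromosome 6, is another main retinoic acid hydroxylase of the embryo. It was at 0.283 FPKM in WT_ES, 76.96 FPKM in WT_NP, 0.0520 FPKM in DKO_ES and 39.7 FPKM in DKO_NP. It was low in both ES libraries, as Cyp26a1 was, but at day 6 its order between genotypes was the opposite, with the knockout library lower. The fold from day 0 to day 6 was 535 (324 to 956) in wild-type and 1053 (360.0 to 5107) in knockout cells, the latter resting on 3 reads in DKO_ES. At day 6 it was 2.62-fold lower in DKO_NP than in WT_NP (2.53 to 2.72), and 1.94-fold lower as deposited. Both ES libraries were under 1 FPKM and were not compared, with 15 reads in WT_ES and 3 in DKO_ES.

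Cyp26c1 lies beside Cyp26a1 on chromosome 19 and had far lower levels. It was at 0.329 FPKM in WT_ES, 2.73 FPKM in WT_NP, 0.216 FPKM in DKO_ES and 3.91 FPKM in DKO_NP, from 7, 153, 5 and 151 reads. It was higher at day 6 in both genotypes, by 16.3-fold (7.74 to 41.3) in wild-type and 24.9-fold (10.4 to 77.9) in knockout cells. Between genotypes at day 6 the fold was 1.06, with an interval of 0.837 to 1.33 that includes no difference.

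Summed over the 3 hydroxylase genes, FPKM was 1.06 in WT_ES and 181 in WT_NP, with 0.490 in DKO_ES and 270 in DKO_NP. The scaled sum in DKO_NP was 1.098 times that in WT_NP, while its make-up differed. Cyp26a1 held 56.1% of the sum in WT_NP and 83.8% in DKO_NP.

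Dhrs3, the retinaldehyde reductase, on chromosome 4, was at 2.20 FPKM in WT_ES, 80.2 FPKM in WT_NP, 1.58 FPKM in DKO_ES and 50.4 FPKM in DKO_NP. Both day 6 libraries were above both ES libraries, and within each day the knockout library was the lower. The fold from day 0 to day 6 was 71.6 (56.9 to 91.4) in wild-type and 43.9 (33.8 to 58.2) in knockout cells. In DKO_NP it was 2.15-fold lower than in WT_NP (2.06 to 2.25), and 1.59-fold lower as deposited, under 2-fold. In DKO_ES it was 1.32-fold lower than in WT_ES, with an interval of 0.923 to 1.90 that includes no difference.

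Rdh10, on chromosome 1, catalyses the opposite step, from retinol to retinaldehyde. It was at 3.19 FPKM in WT_ES, 10.96 FPKM in WT_NP, 2.77 FPKM in DKO_ES and 10.7 FPKM in DKO_NP. Its levels formed a low pair at day 0 and a higher pair at day 6. The fold was 6.75 (5.77 to 7.94) in wild-type and 5.32 (4.51 to 6.31) in knockout cells. In DKO_NP it was 1.39-fold lower than in WT_NP (1.29 to 1.503), and 1.03-fold lower as deposited.

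Aldh1a2, on chromosome 9, is the main retinaldehyde dehydrogenase of the early embryo and is known for its expression in mesoderm. It was at 1.33 FPKM in WT_ES, 6.35 FPKM in WT_NP, 1.45 FPKM in DKO_ES and 1.83 FPKM in DKO_NP, from 43, 541, 51 and 108 reads. WT_NP stood alone, and the other 3 libraries were all under 2 FPKM. The fold from day 0 to day 6 was 9.41 (6.89 to 13.2) in wild-type cells and 1.75 (1.24 to 2.49) in knockout cells. The log2 difference between the 2 ratios, knockout minus wild type, was -1.90, with 1.6% of all compared genes below it, and among the 8 compared genes it was the lowest. In DKO_NP the level was 4.68-fold lower than in WT_NP (3.804 to 5.81) and 3.46-fold lower as deposited. In DKO_ES it was 1.15 times that of WT_ES (0.751 to 1.77).

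Aldh1a3, on chromosome 7, encodes another retinaldehyde dehydrogenase, known from the eye and nasal region. It was at 0.219 FPKM in WT_ES, 0.144 FPKM in WT_NP and 0.142 FPKM in DKO_NP, from 11, 19 and 13 reads, and was listed at 0 in DKO_ES. It stayed under 1 FPKM in all 4 libraries and entered no comparison. The day 6 libraries differed by 1.37-fold with an interval of 0.640 to 3.01, so a difference was not detectable at this depth.

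Crabp1 and Crabp2, the carriers, had the highest FPKM of the 9 genes in both ES libraries, and Crabp2 had the highest in both day 6 libraries. Crabp1, on chromosome 9, was at 54.2 FPKM in WT_ES, 76.0 FPKM in WT_NP, 64.6 FPKM in DKO_ES and 200.8 FPKM in DKO_NP. Its level was already high in ES cells, and DKO_NP stood above the other 3 libraries. The fold from day 0 to day 6 was 2.76 (2.51 to 3.03) in wild-type and 4.29 (3.96 to 4.64) in knockout cells; as deposited, the wild-type log2 ratio was 0.48, under 2-fold. At day 6 Crabp1 was 1.95-fold higher in DKO_NP (1.85 to 2.06), just under the 2-fold call, and 2.64-fold higher as deposited.

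Crabp2, on chromosome 3, which is known to pass retinoic acid to its nuclear receptors, was at 10.7 FPKM in WT_ES, 253 FPKM in WT_NP, 22.7 FPKM in DKO_ES and 718 FPKM in DKO_NP. In DKO_NP it had the 181st highest FPKM of all genes, above 98.6% of expressed genes. The day 6 levels were 46.6-fold (39.2 to 55.8) above day 0 in wild-type and 43.7-fold (39.0 to 49.1) above it in knockout cells, a log2 difference of -0.00. The knockout library was higher at both days, by 2.24-fold at day 0 (1.81 to 2.77) and 2.10-fold at day 6 (2.04 to 2.15).

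**Figure D2:**
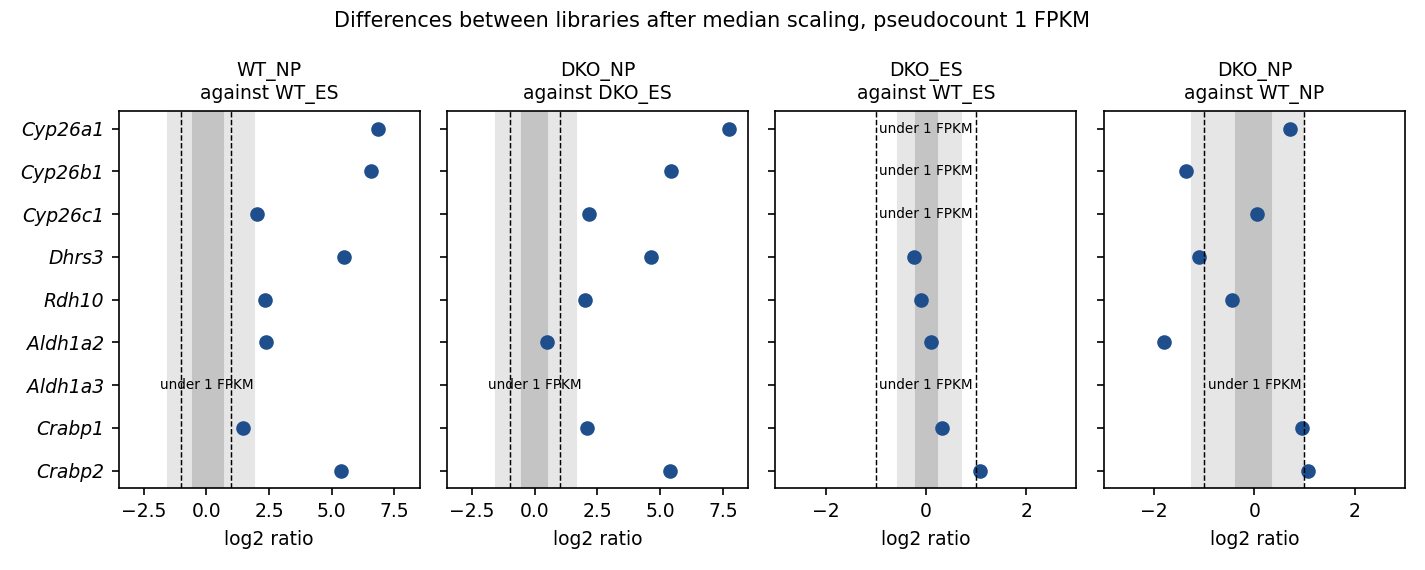
Log2 ratio of each gene after median scaling with a pseudocount of 1 FPKM in the 4 pairs of libraries; dashed lines mark 2-fold, and the light and dark bands hold the middle 90% and 50% of all compared genes. At day 6 Aldh1a2, Cyp26b1 and Dhrs3 lie left of the lower 2-fold line at -1.79, -1.37 and -1.09, and Crabp2 lies right of the upper one at 1.07.

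Between genotypes, fewer of the genes could be compared in ES cells than at day 6. In ES cells 5 of the 9 genes could be compared, and 1, Crabp2, was at least 2-fold higher in DKO_ES, against 2.56% of 13596 genes; none was 2-fold lower, against 1.15%. As deposited these counts were the same, with backgrounds of 2.62% and 1.52%. Of 5 fibroblast markers, which feeder cells express, 3 were at least 2-fold lower in DKO_ES than in WT_ES (4 as deposited), with sums of 15.6 and 60.4 FPKM, and their part in the ES comparison was not tested. In the day 6 libraries 1 of 8 genes, Crabp2, was at least 2-fold higher in DKO_NP, against 4.76% of 13601 genes, and 3, Aldh1a2, Cyp26b1 and Dhrs3, were at least 2-fold lower, against 7.99%. As deposited the split turned to 3 higher, Cyp26a1, Crabp1 and Crabp2, and 1 lower, Aldh1a2, with backgrounds of 10.2% and 3.9%. Over all genes scaling moved the split of calls as well, from 1382 higher with 531 lower before scaling to 648 higher with 1087 lower after it. For WT_NP against WT_ES the split went from 901 higher with 5876 lower to 2287 with 1592, and for DKO_NP against DKO_ES from 1102 with 3067 to 1656 with 1570. For Aldh1a2, Cyp26b1 and Dhrs3 the DKO_NP level was lower, and for Cyp26a1, Crabp1 and Crabp2 higher, on both scales. Rdh10 was 1.39-fold lower in DKO_NP after scaling, but only 1.03-fold lower as deposited, which is near equal. The calls at 2-fold changed for Cyp26a1, Crabp1, Cyp26b1 and Dhrs3.

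**Figure D3:**
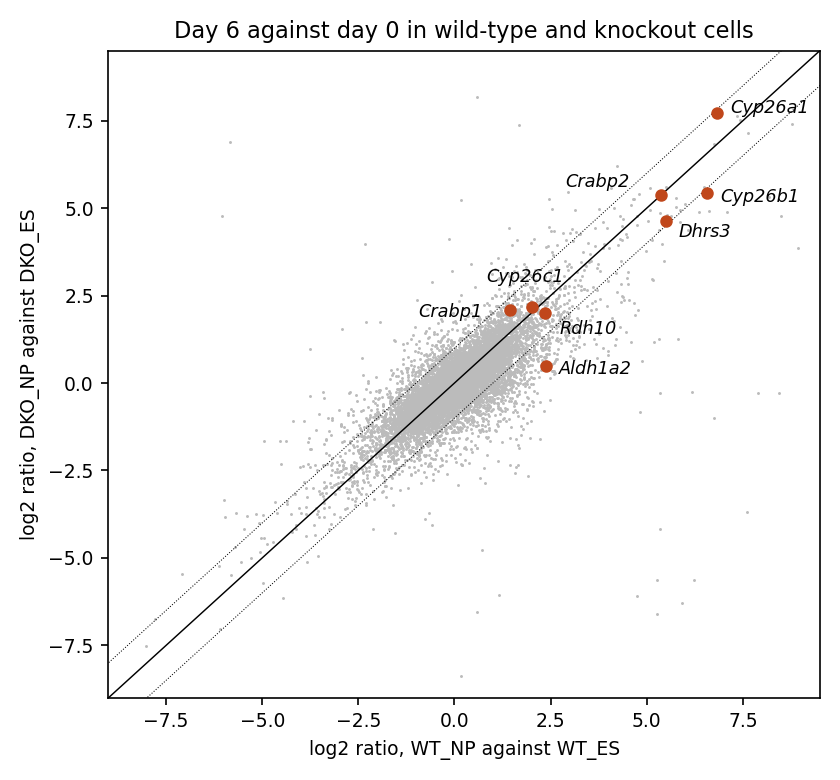
Log2 ratio of day 6 to day 0 in wild-type cells (horizontal) and knockout cells (vertical) after median scaling, with a pseudocount of 1 FPKM; grey points are all genes compared in both, red points are 8 of the 9 genes, the solid line marks equal ratios and the dotted lines a 2-fold difference. Aldh1a2 and Cyp26b1 lie below the lower dotted line, with differences of -1.90 and -1.15, and no red point lies above the upper one; the place of Cyp26b1 depends on the pseudocount, as its folds without one are 535 and 1053.

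The difference of the 2 differentiation ratios, knockout minus wild type, was at least 2-fold lower for 2 of 8 genes, Aldh1a2 and Cyp26b1, against 7.22% of 13423 genes, and at least 2-fold higher for none, against 3.8%. For Cyp26b1 this rests on the pseudocount of 1 FPKM, since its folds without one, 535 and 1053, run the other way, and with 0.1 FPKM its log2 ratios were 8.51 in wild-type and 8.27 in knockout cells, under 2-fold apart. Cyp26a1 came closest from above, at 0.89 on the log2 scale, and Dhrs3 from below, at -0.85. The difference was 0.64 for Crabp1, -0.35 for Rdh10 and 0.15 for Cyp26c1. As deposited the sign for Rdh10 turned, to 0.12, and Crabp2 was at 0.48 rather than -0.00. As deposited, 2 genes, Cyp26a1 and Crabp1, were at least 2-fold higher, against 11.8% of genes, and 1, Aldh1a2, was lower, against 3.47%.

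Ratios between genes of 1 library need no scaling between libraries. Cyp26a1 stood at 1.32 times Cyp26b1 in WT_NP (1.28 to 1.36) and at 5.69 times in DKO_NP (5.48 to 5.91). In the ES libraries this ratio was 1.57 (0.652 to 3.65) and 4.28 (0.914 to 26.4), and few reads lie behind either. Crabp2 was below Crabp1 in ES cells, at 0.197 times its level in WT_ES and 0.351 times in DKO_ES, and above it at day 6, at 3.33 times in WT_NP and 3.58 times in DKO_NP. The order of the 2 carriers was thus reversed at day 6 in both genotypes. Dhrs3 was likewise below Rdh10 at day 0, at 0.690 in WT_ES and 0.571 in DKO_ES, and above it at day 6, at 7.32 in WT_NP (6.93 to 7.73) and 4.72 in DKO_NP (4.40 to 5.07). Rdh10 stood at 1.73 times Aldh1a2 in WT_NP (1.56 to 1.91) and 5.82 times in DKO_NP (4.77 to 7.16), with 2.41 in WT_ES and 1.91 in DKO_ES. The widest span was that of the hydroxylase Cyp26a1 to the synthesis gene Aldh1a2, at 0.334 in WT_ES and 16.0 in WT_NP, with 0.154 in DKO_ES and 123 in DKO_NP (102 to 150.3). These are ratios of FPKM, which is per length, and say nothing of protein or enzyme activity.

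**Figure D4:**
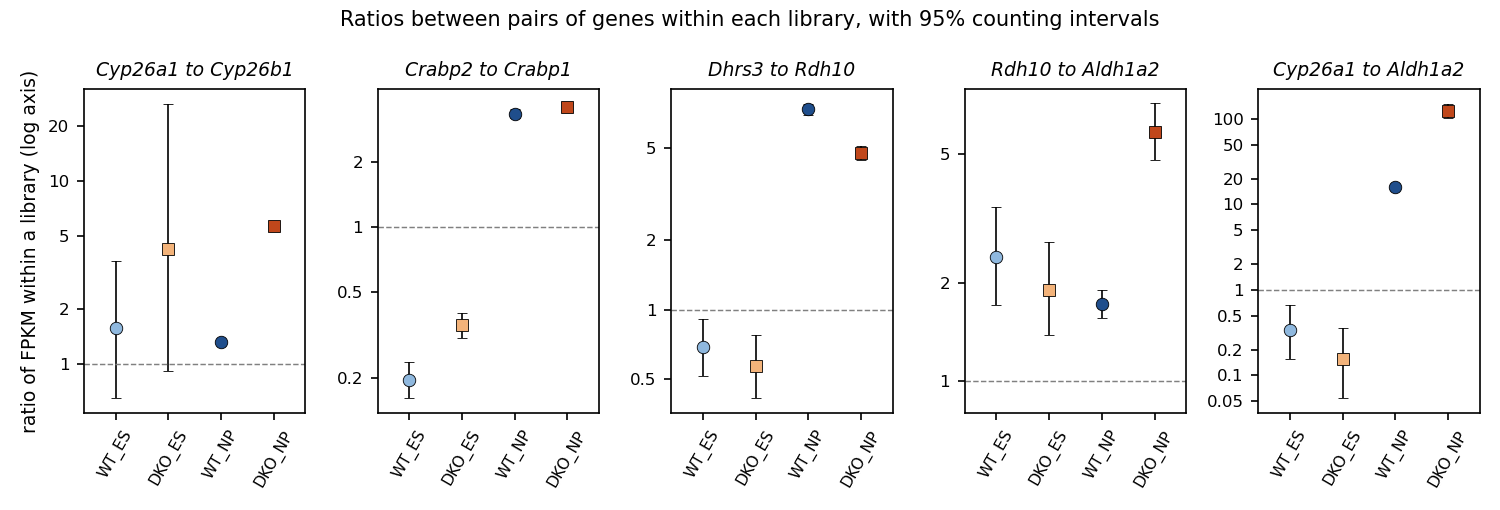
Ratio of FPKM between 5 pairs of genes in each library (log axis), with 95% exact counting intervals where wider than the symbol; the dashed line marks equal levels. Crabp2 to Crabp1 and Dhrs3 to Rdh10 lie below 1 in both ES libraries and above 1 in both day 6 libraries, and Rdh10 to Aldh1a2 is highest in DKO_NP at 5.82.

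The wider retinoid pathway was described by a list of 57 other genes, of which 40 could be compared between WT_NP and WT_ES. Of these 19 were at least 2-fold higher and 4 lower, with a median log2 ratio of 0.91. In the knockout cells 19 of 43 were higher and 4 lower, with a median of 0.66. In each genotype 9 of the 19 came from the 10 genes listed for their induction by retinoic acid, so the higher counts are a description. Others, such as Rarb, Stra6 and Cyp1b1, were under 1 FPKM in both ES libraries. These entered only through their day 6 level, so they could only be higher. The shares over all genes were 16.2% higher and 11.3% lower in wild-type and 11.8% and 11.2% in knockout cells, so the lower counts are near the background. As deposited, 8 genes were lower in each, where 41.7% of all genes were lower in wild-type and 21.8% in knockout cells. In ES cells none of 29 pathway genes differed by 2-fold between genotypes, which is near the 2.56% higher and 1.15% lower of all genes. At day 6, 3 of 41 were at least 2-fold higher in DKO_NP and 7 lower, against 4.76% and 7.99% of all genes. The median log2 ratio was -0.24. As deposited the split was 7 higher and 3 lower, against 10.2% and 3.9% of all genes.

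Among the receptors, Rarb was at 0.272 FPKM in WT_ES, 36.9 FPKM in WT_NP, 0.318 FPKM in DKO_ES and 30.6 FPKM in DKO_NP, a fold of 267 in wild-type and 133 in knockout cells. Rarg, the receptor most abundant at day 0, went the other way, from 61.2 to 8.31 FPKM in wild-type and from 60.3 to 7.28 FPKM in knockout cells. It was 3.75-fold and 6.01-fold lower after scaling. The partner Rxra was 1.995-fold higher at day 6 in wild-type (1.81 to 2.20) and 2.64-fold higher in knockout cells (2.43 to 2.88). As deposited its log2 ratios were 0.02 and 0.87, both under 2-fold. Nrip1, a corepressor, was 9.84-fold higher at day 6 in wild-type and 7.72-fold higher in knockout cells.

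Genes of retinol uptake and binding also differed between days. Stra6, the membrane receptor for retinol-binding protein, was at 0.347 FPKM in WT_ES, 9.13 FPKM in WT_NP, 0.616 FPKM in DKO_ES and 16.4 FPKM in DKO_NP. It was higher at day 6 in each genotype, by 51.7-fold in wild-type and 36.8-fold in knockout cells. Rbp4, the retinol carrier of serum, had another pattern, at 4.73 FPKM in WT_ES, 32.4 FPKM in WT_NP, 4.91 FPKM in DKO_ES and 6.17 FPKM in DKO_NP. It was highest in WT_NP, as Aldh1a2 was, and 7.12-fold lower in DKO_NP than in WT_NP (6.07 to 8.39). In WT_NP Rbp4 stood above 86.3% of expressed genes and Aldh1a2 above 38.5%. Rbp7, a cellular retinol-binding protein, was lower at day 6, by 22.7-fold in wild-type and 7.57-fold in knockout cells.

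Among the other enzymes and carriers, the P450 gene Cyp1b1 was at 0.516 FPKM in WT_ES, 4.35 FPKM in WT_NP, 0.0831 FPKM in DKO_ES and 10.04 FPKM in DKO_NP. Cyp2s1, also a P450, was 8.44-fold lower in DKO_NP than in DKO_ES and 5.95-fold lower than in WT_NP, where its log2 ratio was -1.34 after scaling and -0.98, under the call, as deposited. Fabp5, a fatty acid carrier that can bind retinoic acid, was 2.35-fold higher at day 6 in wild-type cells, or 1.195-fold as deposited, and 2.87-fold higher in knockout cells. Adh5, an alcohol dehydrogenase, was 2.03-fold lower in WT_NP than in WT_ES.

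Of 10 genes listed as induced by retinoic acid, all 9 that could be compared in wild-type cells were at least 2-fold higher in WT_NP, with a median log2 ratio of 4.51, against 16.2% of all genes. In knockout cells 9 of 10 were higher in DKO_NP, with a median of 3.84, against 11.8%. Hoxb1, Meis1, Meis2, Pdgfra, Nr2f1 and Nr2f2 were under 1 FPKM in both ES libraries and entered only through their day 6 level, so they could only be higher. The homeobox cofactors Meis1 and Meis2 were 159.5-fold and 219-fold higher in wild-type and 138-fold and 117-fold higher in knockout cells. Hoxb1 was listed at 0 in both ES libraries and was at 14.6 FPKM in WT_NP and 7.23 FPKM in DKO_NP. The nuclear receptor genes Nr2f1 and Nr2f2 stood at 14.7 and 29.8 FPKM in WT_NP, from 0.0286 and 0.0481 FPKM in WT_ES.

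Between genotypes at day 6 the induced genes split, with 2 of 10 at least 2-fold higher and 4 lower in DKO_NP, against 4.76% and 7.99% of all genes. Stra8, a gene of germ cells entering meiosis, was at 6.10 FPKM in WT_ES, 28.8 FPKM in WT_NP, 9.81 FPKM in DKO_ES and 352 FPKM in DKO_NP. It was 9.03-fold higher in DKO_NP than in WT_NP (8.56 to 9.54). Lower in DKO_NP were Pdgfra, a receptor gene of mesoderm, by 13.4-fold, Nr2f2 by 4.02-fold, Hoxb1 by 2.73-fold and Tgm2, a transglutaminase gene, by 2.49-fold. As deposited 2 genes were higher and 2 lower, against 10.2% and 3.9% of all genes. Hoxb1 was then at a log2 ratio of -0.92 and Tgm2 at -0.84, under 2-fold.

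**Figure D5:**
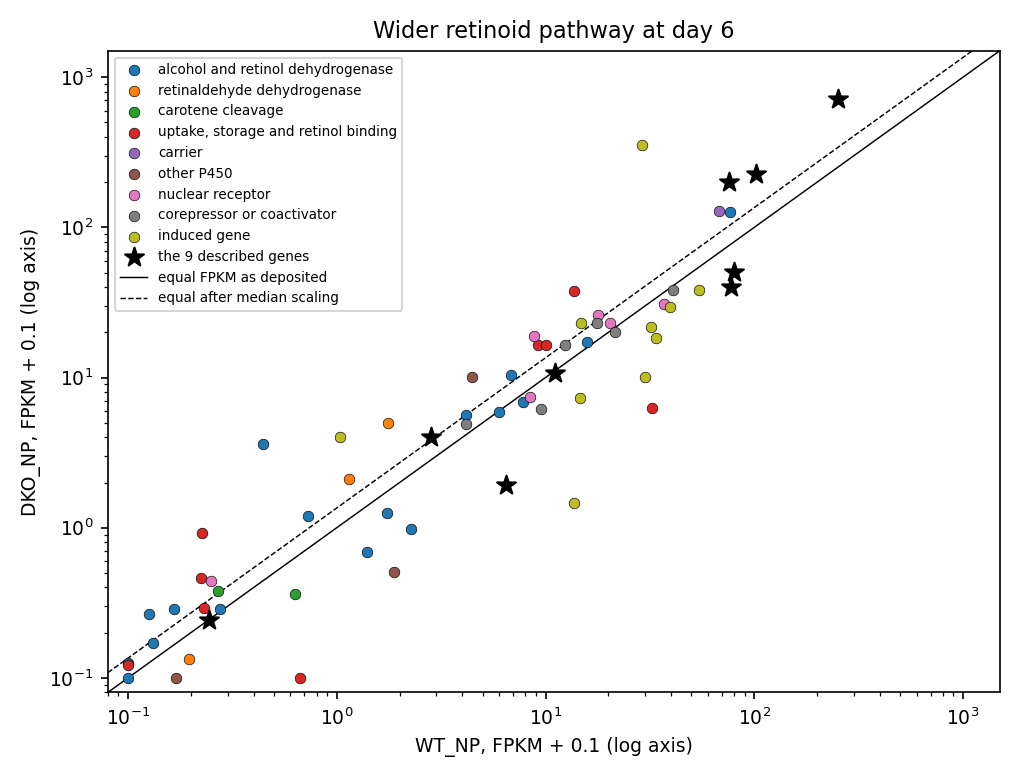
FPKM plus 0.1 of the 9 genes (stars) and the 57 wider pathway genes (circles, coloured by role) in WT_NP (horizontal) and DKO_NP (vertical), both on log axes; the solid line marks equal FPKM as deposited and the dashed line equal levels after median scaling. Crabp2, Cyp26a1 and Crabp1 are the stars at the top right above both lines, at 718, 226 and 200.8 FPKM in DKO_NP, and Aldh1a2 lies below both at 1.83 FPKM.

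The genes nearest in pattern were those with the smallest Euclidean distance over the 4 libraries, on centred log2 values, among 11115 genes that reached 5 FPKM in some library. For Rdh10 these were Uggt2 and Zfp362, for Aldh1a2 Dact1 and Scarna3b, for Crabp1 Rgs10 and Nkd1, and for Crabp2 H19 and Hoxb2. For Cyp26a1 they were Mir219-2 and Mir10b, for Cyp26b1 Mir690 and Mirlet7i, and for Dhrs3 Mir29c and Mirlet7a-2, short RNA genes listed at 0 in both ES libraries. Among 9125 genes of at least 1 kb, a limit chosen after these values were seen, the nearest were Hoxb2 and Hoxa5 for Cyp26a1, Meis1 and Igfbp5 for Cyp26b1, and Meis2 for Dhrs3. The distance was 0.29 log2 units between Dhrs3 and Meis2 and 1.97 between Cyp26a1 and Hoxb2. Among the 7 of the 9 genes that reached 5 FPKM the nearest pair was Cyp26b1 and Dhrs3, at 0.95.

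Markers of several cell types also differed between the day 6 libraries, some lists higher and some lower in DKO_NP. Summed FPKM of 10 neural progenitor markers was 30.01 in WT_ES and 69.3 in WT_NP, with 35.2 in DKO_ES and 243 in DKO_NP. Of these markers 7 were at least 2-fold higher in DKO_NP than in WT_NP and none lower, where 4.76% of all genes were higher and 7.99% lower, shares that also stand behind the day 6 marker counts that follow. The summed level of 9 mesoderm markers, the tissue in which Aldh1a2 is best known, was 7.16, 74.3, 11.5 and 19.6 FPKM in the same order, and 4 of the 7 compared were at least 2-fold lower in DKO_NP. The defining early mesoderm markers T and Mesp1 were near 0 in both day 6 libraries, with T at 0.262 FPKM in WT_NP and 0.0380 FPKM in DKO_NP and Mesp1 listed at 0 in DKO_NP. Pdgfra is on both the mesoderm and the induced gene lists.

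The 7 endoderm markers summed to 3.62 FPKM in WT_ES and 124 in WT_NP, with 1.62 in DKO_ES and 28.6 in DKO_NP, and 5 of 7 were at least 2-fold lower in DKO_NP. The 5 erythroid markers summed to 1.84, 766, 2.42 and 74.5 FPKM. Almost all of the day 6 sums was globin RNA. In WT_NP Hbb-bh1 was at 328 FPKM, Hba-x at 242 FPKM and Hbb-y at 193 FPKM. The remaining markers, Gata1 and Klf1, were at or below 1.37 FPKM in every library. Gata1 was at 1.03, 1.37, 1.31 and 0.655 FPKM in the same order. After median scaling it was at 1.05 in DKO_ES and 0.721 in DKO_NP, from roughly 36 and 30 reads. This lower day 6 value in knockout cells rests on few reads and was not tested. Klf1 was at 0.813, 1.15, 0.967 and 0.974 FPKM. The 8 pluripotency markers summed to 7489 FPKM in WT_ES and 96.6 in WT_NP, with 8274 in DKO_ES and 408 in DKO_NP. Of the 8, 5 were at least 2-fold higher in DKO_NP than in WT_NP, Sox2 among them. Dppa5a alone was at 266 FPKM in DKO_NP. Klf4 was lower in DKO_NP than in WT_NP, at 2.70 against 3.98 FPKM. Neural crest markers were low at day 6, at 4.29 and 2.60 FPKM summed over 4 genes. Of the 10 neural progenitor markers, 9 reached 1 FPKM in WT_NP and 10 in DKO_NP, against 4 in WT_ES and 5 in DKO_ES. In WT_NP their sum of 69.3 FPKM lay below the mesoderm, endoderm and erythroid sums. There Sox1, Sox3 and Nes were at 4.33, 3.48 and 19.3 FPKM, with 3.15, 4.27 and 16.9 FPKM in WT_ES. After median scaling they were at 6.46, 5.19 and 28.8 in WT_NP and 2.39, 3.24 and 12.8 in WT_ES. Of 9 neural progenitor markers compared, 8 were at least 2-fold higher in WT_NP than in WT_ES and none lower. Over all genes 16.2% were higher and 11.3% lower. As deposited 6 were higher, against 6.4%. Pax3, Hes5, Zic1, Irx3 and Dbx1 were under 1 FPKM in WT_ES, so they could only be higher. Markers of mesoderm, endoderm and, as globin RNA, red blood cells were present beside them in both day 6 libraries. The part of these markers in the differences of Aldh1a2, Cyp26b1, Dhrs3 and Rbp4 between genotypes was not tested.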

How the data were processed

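RNA of 4 mouse libraries was used, 1 per group. The authors deposited FPKM per gene symbol; the submitters' processing notes name Bowtie, TopHat and the build mm9, with no version, annotation or FPKM program given in the sources used here. The 18 blank rows were left out. Median scaling divided a library by its typical ratio to the geometric mean over all 4 (factors 1.32, 0.671, 1.25 and 0.908 for WT_ES, WT_NP, DKO_ES and DKO_NP). Log2 ratios used a pseudocount of 1 FPKM, which understates low genes, over genes reaching 1 FPKM in a library of the pair, and were called at 2-fold. Folds of single genes use no pseudocount. Reads were inferred from whole-read steps of FPKM (559 genes, GENCODE M21 lengths) and are rough above 1000 reads and for genes other than the 9; 3 reads of a 2 kb gene equal 0.0431 to 0.113 FPKM. The day 6 to day 0 comparisons were tested on simulated data before use. No conclusion on the folds of the 9 genes or on the scaling is drawn from that test. An exact 0 can be a failed estimate, so no fold was taken against it. Strand use is not stated, so antisense overlap cannot be told apart. Chromosomes are from GENCODE (GRCm38); no coordinates of the mm9 values are given.

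The genes, lists and tests were chosen with earlier results of these data known. Named genes were the 9, pathway genes at or above 5 FPKM with a 2-fold difference in some comparison (some are given only in counts, and a few named by the rule are not reported here), the 2 nearest patterns per gene, the targeted genes, and markers at or near 0. Other markers were named after their values were seen, where they set a marker sum or went against it. Alternatives were FPKM as deposited, upper-quartile scaling, pseudocounts of 0.1 and 5 FPKM, and filters. Python 3.11.15, pandas 2.3.3, numpy 2.4.6 and scipy 1.17.1 were used.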

Additional observations from a re-analysis of the deposited data

Results flagged for a closer look

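Tgm2, a transglutaminase gene on the list of genes induced by retinoic acid, was picked out because the sign of its genotype difference was not the same at the 2 days. Its log2 ratio of knockout to wild type was 0.16 at day 0, under 2-fold and within the middle range of all genes, and -1.27 at day 6, or -0.84 as deposited. The difference between the days was -1.43, which was not tested because each group is 1 library.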

How the results depend on the processing

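No paired analysis was possible because each group holds 1 library. Of 108 pairs of a count and an alternative, 19 lay more than 1.5 times from the reported count. None of the log2 ratios of the 9 genes between 2 libraries changed sign. That of Rdh10 for DKO_NP against WT_NP was -0.44 after scaling but -0.03 as deposited. Without median scaling, pathway genes at least 2-fold lower at day 6 numbered 8 in each genotype (reported 4). For DKO_NP against WT_NP, 3 of the 9 genes were then higher (reported 1) and 1 lower (reported 3), and 7 pathway genes higher (reported 3) and 3 lower (reported 7). For the difference of ratios, 2 genes were higher (reported 0) and 1 lower (reported 2). With a pseudocount of 0.1 FPKM, 1 pathway gene was lower in DKO_ES (reported 0), 5 were higher in DKO_NP than in WT_NP (reported 3), and for the difference 1 gene was higher and 1 lower. With 5 FPKM, 1 pathway gene was lower at day 6 in each genotype, none of the 9 was higher in DKO_ES (0, reported 1), and 1 pathway gene was higher in DKO_NP than in WT_NP. With a filter of 5 FPKM, 1 pathway gene was lower in DKO_NP than in DKO_ES, 1 was higher in DKO_NP than in WT_NP, and 1 of the 9 was lower in the difference. A smaller pseudocount widens and a larger one narrows the ratios of low genes, and a stricter filter compares fewer genes. Upper-quartile scaling moved no count by over 1.5 times. Of 116 pairs of a log2 ratio and an alternative, 8 changed side of 2-fold. As deposited these were, for DKO_NP against WT_NP, Cyp26a1 (1.14), Cyp26b1 (-0.94), Dhrs3 (-0.66) and Crabp1 (1.39), and Crabp1 in WT_NP against WT_ES (0.48). With 5 FPKM they were Cyp26c1 at day 6 (0.79 and 0.85) and Crabp2 in DKO_ES (0.82). Depth limits Cyp26 and Aldh1a3 in ES cells to at most 15 reads each.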
